A study of Homo sapiens with 46 samples.

Results

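Human MT-ATP8 and MT-ATP6 are translated from a single mitochondrial mRNA. The RNA-seq profiles of cells in which silencing had been directed at either frame were compared directly with each other. The comparison took the 4 libraries of ATP6 silencing and the 4 of ATP8 silencing, 8 of the 46 libraries of the series, over all genes, with the control left out of the contrast. All 8 cultures were HEK293T cells (a HEK293-Flp-In T-Rex line from human embryonic kidney) that had received a chimera of the yeast Cox4 presequence (pCox4), which carries its cargo into mitochondria, and a morpholino, an uncharged antisense oligomer. The 2 groups thus shared the cell line, the presequence, the transfection reagent, the dose of 2 µM given in the study's methods and the time of 48 hours, and differed in the morpholino. Control cells, quoted beside the results, received pCox4 in the coupling buffer without a morpholino, and for these too there were 4 libraries. Replicates 1 and 2 of every group formed batch 1 and replicates 3 and 4 batch 2. The study's methods call the 4 libraries of a treatment biological replicates. Translation, the step that the chimeras block, was not measured by these data. The paper reports that the ATP8 chimera also lowered ATP6 synthesis, and marks this in the protein labelling done for the sequencing samples. The contrast is thus between a chimera directed at ATP6 and one reported to lower both proteins.

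The ATP8 and ATP6 proteins are the only mtDNA-encoded subunits of the F1Fo-ATP synthase (complex V), which makes ATP from the proton gradient across the inner membrane. ATP6 forms part of the proton path next to the ring of c subunits, and ATP8 lies in the peripheral stalk region of the membrane part. The other subunits are encoded in the nucleus, translated in the cytosol and imported, and the mRNA that carries both mitochondrial frames is cut from a long precursor transcript whose next mRNA is that of MT-CO3, a subunit of cytochrome c oxidase.

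MT-ATP8 (ENSG00000228253) occupies bases 8366 to 8572 of mtDNA and MT-ATP6 (ENSG00000198899) bases 8527 to 9207, both on the plus strand (GRCh38, GENCODE annotation), so the 2 frames overlap by 46 bases, or 22.2% of MT-ATP8. Both are protein-coding genes without introns, and the ATP6 frame is shifted by 2 bases against that of ATP8. The chimera names give the target of the ATP8 chimera as bases 6 to 28 of the ATP8 frame and that of the ATP6 chimera as bases -10 to 15 of the ATP6 frame, counted from the first base of each start codon, and the sites were read from the annotated transcripts at these positions. The sites are shown because the morpholino, and with it the target site, is what differed between the groups. The first line runs from the first base of MT-ATP8 to the end of the ATP8 site (chrM:8366-8393), with the 23 bases of the site in capitals. The second runs from the start of the ATP6 site to the end of the ATP8 frame (chrM:8517-8572), with the start codon of ATP6 and the stop codon of ATP8 in capitals.
ATP8 site: atgccCCAACTAAATACTACCGTATGGC
ATP6 site and end of the ATP8 frame: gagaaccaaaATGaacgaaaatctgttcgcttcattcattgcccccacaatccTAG
The ATP6 site is the first 25 bases of the second line (chrM:8517-8541, bases 152 to 176 from the start of MT-ATP8), and all 25 lie inside the ATP8 frame as well, ahead of its stop codon. The sites are 123 bases apart and share no run longer than 4 bases. Their GC content is 43.5% for ATP8 and 36% for ATP6. Among 206694 annotated transcripts, runs of at least 15 bases of the ATP8 site occurred in 2 further genes, MTATP8P2 (the whole site) and MTATP8P1, and runs of the ATP6 site in 7. Only 2 of these genes passed the filter on low counts. AL021068.2 differed by a log2 fold change of -0.15 (SE 0.540) and MTATP6P1, a nuclear copy of MT-ATP6, by 0.18 (SE 0.155), both with an adjusted p of 0.993 in edgeR's quasi-likelihood test.

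**Figure D1:**
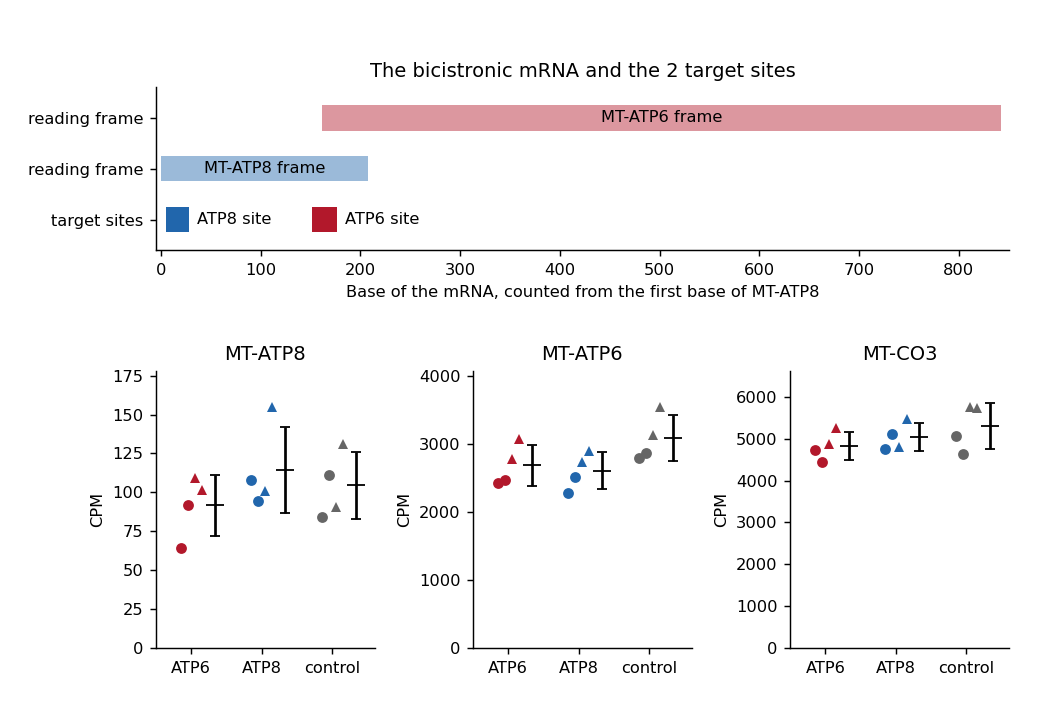
Top, the mRNA with the ATP8 and ATP6 frames and the 2 target sites, in bases from the first base of MT-ATP8; bottom, CPM (counts on a gene scaled to a common library total) of MT-ATP8, MT-ATP6 and MT-CO3 in each library after ATP6 silencing, after ATP8 silencing and in the control (circles, batch 1; triangles, batch 2; bars, mean ± SD, n = 4). The ATP6 and ATP8 groups overlap for all 3 genes, and the ATP6 site lies inside the ATP8 frame and spans the start of the ATP6 frame.

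The authors deposited the reads counted on each gene, and levels are given as CPM, the counts on a gene scaled to a common library total. Totals ran from 21024598 to 25873060 counts per library after ATP6 silencing, from 21175789 to 25781350 after ATP8 silencing and from 19944731 to 22664329 in the control. Measured as the SD of the log2 CPM difference over 15239 genes, ATP6 and ATP8 libraries of the same batch lay 0.256 apart (median of 8 pairs, range 0.241 to 0.295), against 0.268 between ATP6 libraries of the same batch and 0.259 between ATP8 libraries of the same batch (2 pairs each). Across batches the median was 0.354 between ATP6 and ATP8 libraries, 0.340 between ATP6 libraries and 0.374 between ATP8 libraries. All 8 HEK293T markers listed were tested and none had an adjusted p under 0.05 (edgeR), with 4 higher and 4 lower after ATP6 silencing. Only some of them are quoted. KRT8 stood at 427 ± 74.8 CPM after ATP6 silencing and 429 ± 48.8 after ATP8 silencing, and NEFL at 202 ± 6.38 and 201 ± 12.2 (SD, n = 4). NEFM, the marker with the smallest p, was at 0.799 ± 0.165 and 1.38 ± 0.384 CPM (SD, n = 4), a low level, and did not pass the test (adjusted p = 0.993, edgeR). Of 24 markers of fibroblasts, blood, endothelium, hepatocytes and cardiomyocytes, 13 did not pass the filter and none was above 0.390 CPM in any of the 8 libraries, and COL1A1 was the highest at 26.1 ± 1.69 and 26.2 ± 2.55 CPM.

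For the MT-ATP6 frame of the targeted mRNA the treatments differed by less than the spread between replicates. MT-ATP6 stood at 2430, 2462, 2783 and 3067 CPM in ATP6 replicates 1 to 4 and at 2284, 2516, 2728 and 2901 CPM in ATP8 replicates 1 to 4. The groups overlapped, and in both the batch 2 libraries were above those of batch 1. The log2 fold change of ATP6 minus ATP8 silencing was 0.04 (SE 0.0545, 95% interval -0.07 to 0.15, adjusted p = 0.993), with 0.03 in batch 1 and 0.05 in batch 2. Control libraries held 3084 ± 338 CPM (SD, n = 4), and against them MT-ATP6 differed by -0.20 after ATP6 silencing and by -0.24 after ATP8 silencing (adjusted p = 0.207 and 0.0649), 2 differences that share the same control libraries. Neither passed the threshold of 0.05. Of the counts on this gene and its nuclear copy MTATP6P1 together, 5.51% to 8.09% per library fell on the copy, and with both summed the difference was 0.05 (SE 0.0570), an alternative chosen after the data were seen.

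MT-ATP8 had a larger difference and a wider spread. It stood at 64.4, 91.6, 109 and 102 CPM in ATP6 replicates 1 to 4 and at 108, 94.5, 101 and 155 CPM in ATP8 replicates 1 to 4. ATP6 replicate 1 was the lowest and ATP8 replicate 4 the highest, and the other 6 libraries overlapped between 91.6 and 109 CPM. The means were 91.8 ± 19.7 and 114 ± 27.4 CPM, against 104 ± 21.3 in the control (SD, n = 4). The log2 fold change was -0.32 (SE 0.173, 95% interval -0.67 to 0.03), negative in batch 1 (-0.38) and in batch 2 (-0.28), and did not pass the test (adjusted p = 0.993, edgeR). Without ATP8 replicate 4 it was -0.19. MT-ATP8 was the one gene among the 13 mtDNA-encoded mRNAs whose interval reached beyond 0.5 on the log2 scale. Per kilobase of gene length, MT-ATP8 held 498 CPM and MT-ATP6 3886 CPM in the mean of the 8 libraries, a ratio of 7.80. The counting program and its treatment of reads that overlap both genes are not given in the sources used here, so reads in the 46 shared bases cannot be told apart.

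MT-CO3, next on the precursor transcript (bases 9207 to 9990, sharing 1 base with MT-ATP6), stood at 4743, 4435, 4875 and 5258 CPM in the ATP6 libraries and at 4762, 5122, 4796 and 5481 CPM in the ATP8 libraries. The groups overlapped, with a log2 fold change of -0.07 (SE 0.0645, 95% interval -0.19 to 0.06, adjusted p = 0.993). Ratios within a library, which do not depend on the scaling between libraries, were also compared along the precursor. The log2 ratio of MT-ATP8 to MT-ATP6 counts was -5.24, -4.75, -4.67 and -4.91 in ATP6 replicates 1 to 4 and -4.41, -4.74, -4.76 and -4.23 in ATP8 replicates 1 to 4. ATP8 replicates 2 and 3 lay within the range of the ATP6 libraries. The means were -4.89 ± 0.252 and -4.53 ± 0.259, with the control at -4.90 ± 0.213 (SD, n = 4), and the difference of -0.36 gave p = 0.143 in a two-sided exact permutation test, where 4 libraries against 4 can reach 0.0286. The log2 ratio of MT-ATP6 to MT-CO3 was 0.10 higher after ATP6 silencing (exact permutation p = 0.2, and p = 0.0556, the smallest possible, with labels exchanged only within batches). That of MT-CO2 to MT-ATP8, the genes on either side of the tRNA gene MT-TK, was 0.23 higher (exact permutation p = 0.343), and 0.09 higher without ATP6 replicate 1. Adjusted over these 3 ratios by the Benjamini-Hochberg method, the smallest p of the exact permutation tests was 0.3.

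Of the 37 mtDNA genes, 34 passed the filter and none was called. After ATP6 silencing 28 of the 34 were lower than after ATP8 silencing, against 49.4% of all genes tested. The median was -0.11 on the log2 scale against 0.00 over all genes. The largest differences were in tRNAs of low counts, MT-TE (-0.80, mean 2.12 CPM), MT-TQ (-0.73, 0.519 CPM) and MT-TV (-0.60, 1.09 CPM). These 28 comprised 11 of 13 mRNAs, 15 of 19 tRNAs and both rRNAs. Between 25 and 29 were lower in each of 27 alternative settings, the scalings included. The median was -0.05 without ATP8 replicate 2, -0.14 in batch 1 alone and -0.04 in batch 2 alone. mtDNA genes are cut from shared precursors, so they are not independent of one another. The share of all counts that fell on mtDNA genes was 4.39%, 4.12%, 4.58% and 4.77% in ATP6 replicates 1 to 4 and 4.45%, 4.49%, 4.52% and 4.86% in ATP8 replicates 1 to 4. The shares overlapped, and their means of 4.46% ± 0.278 and 4.58% ± 0.186 (SD, n = 4) gave an exact permutation p of 0.486.

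**Figure D2:**
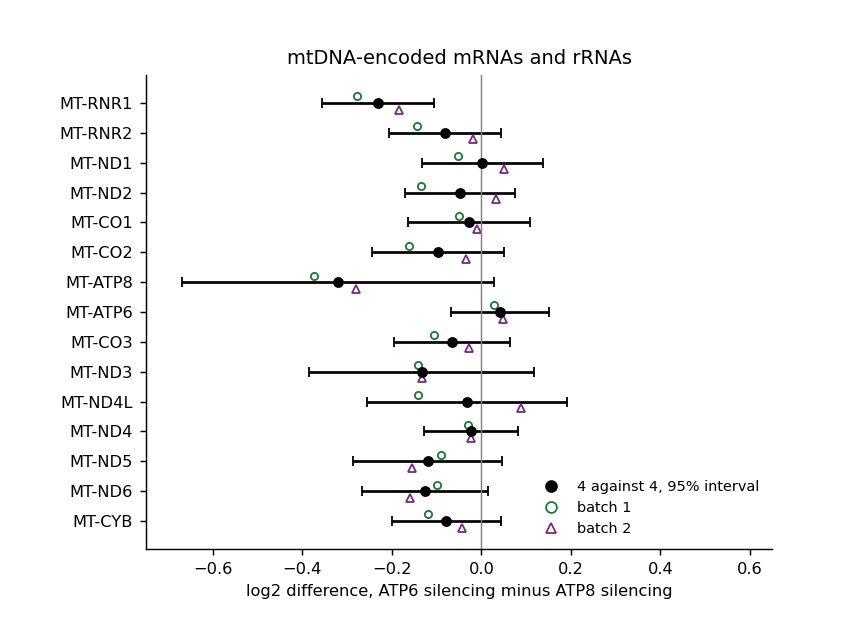
Log2 difference of ATP6 minus ATP8 silencing for the 13 mRNAs and 2 rRNAs of mtDNA, in the order of the genome (black points, all 8 libraries with their 95% interval; open circles, batch 1; open triangles, batch 2). Of the 15 intervals, that of MT-RNR1 alone lies wholly on one side of 0, and that of MT-ATP8 is the widest.

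The 12S rRNA MT-RNR1 (ENSG00000211459, bases 648 to 1601) had the smallest p among mRNAs and rRNAs of mtDNA. It stood at 985, 1028, 877 and 859 CPM in ATP6 replicates 1 to 4 and at 1167, 1276, 923 and 1041 CPM in ATP8 replicates 1 to 4. Within each batch both ATP8 libraries were above both ATP6 libraries, while ATP8 replicate 3 was below 2 ATP6 libraries of the other batch. The log2 fold change was -0.23 (SE 0.0622, 95% interval -0.36 to -0.11), -0.28 in batch 1 and -0.18 in batch 2, and did not pass the correction over all genes (adjusted p = 0.993). Without a filter on low counts MT-RNR1 was called, at -0.24, close to the estimate with the filter. That fit held 47354 genes and called 21 of them, against 0 with the filter, so this call is uncertain. The control was lower than both groups, at 652 ± 31.7 CPM (SD, n = 4). The 16S rRNA MT-RNR2 stood at 4346 ± 89.1 CPM after ATP6 silencing, 4591 ± 312 after ATP8 silencing and 3707 ± 280 in the control, and differed by -0.08 between the treatments (SE 0.0628). Mitochondrial rRNAs carry short tails, and what enrichment for poly(A) does to their counts was not tested.

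Among tRNAs, MT-TE (glutamate) had the largest difference. It stood at 1.30, 1.80, 1.68 and 1.37 CPM after ATP6 silencing and at 2.01, 2.70, 3.58 and 2.5 CPM after ATP8 silencing, without overlap. Groups of 4 and 4 failed to overlap for 264 of 20272 genes tested, or 1.3%, and for 2 of the 19 tRNAs, MT-TE and MT-TV (valine). For MT-TE the log2 fold change was -0.80 (SE 0.230, adjusted p = 0.993), at a level near 2 CPM. MT-TN (asparagine) differed by -0.35 and MT-TP (proline) by -0.30, and the latter was at 50.9 CPM in ATP8 replicate 2 against 24.5 to 36.3 in the other ATP8 libraries. Without ATP8 replicate 2, 16 of the 19 tRNAs were lower and the median over them was -0.17, against -0.16 with it.

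Over the whole transcriptome no gene passed the test between ATP6 and ATP8 silencing. With all 46 libraries in one edgeR model with a batch term, 0 of 20272 genes (0%) had an adjusted p under 0.05, and the smallest adjusted p was 0.738. With only these 2 groups in the model 3 genes were called, and without a filter on low counts 21. At an unadjusted p under 0.05 there were 871 genes (4.3% of those tested), 438 higher (2.16%) and 433 lower (2.14%) after ATP6 silencing. DESeq2 with a batch term also called 0 genes (868 at an unadjusted p under 0.05), as did limma-voom (0 called, 832 unadjusted). The median absolute log2 fold change was 0.0773. Either batch alone gave 0 calls in edgeR (1831 genes at an unadjusted p under 0.05 in batch 1 and 645 in batch 2). Across genes the log2 fold changes of the batches had a correlation of 0.000397, or -0.15 over the 10408 genes with a mean of at least 10 CPM, and 46.3% of genes had the same sign in both. A term for a difference between batches was called for 0 genes in edgeR, both with the 8 libraries alone (964 unadjusted, 4.76%) and with all 46 (1334 unadjusted).

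Which sizes of difference the data leave possible is described by the intervals, taken for each gene alone and not adjusted for the number of genes. The 95% interval lay inside 0.5 on the log2 scale, in both directions, for 12787 genes (63.1%). The share was 99.7% of the 10408 genes with a mean of at least 10 CPM, and inside 0.25 lay 81.8% of these. Intervals were wider for low genes, and of all genes tested 80.5% had an interval inside 1. The median half-width was 0.213 over all genes and 0.132 over those of at least 10 CPM. Among the 36 pairs of treatments with 4 libraries each in the same model, the number of genes called ran from 0 to 212 with a median of 8.5, and 2 pairs had none. At an unadjusted p under 0.05 these pairs gave 766 to 3069 genes with a median of 1311, and 6 pairs gave fewer than the 871 of ATP6 against ATP8. These pairs share libraries.

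The 18 nuclear-encoded subunits of the ATP synthase were all measured, and none was called. Every one of the 18 intervals lay inside 0.5 on the log2 scale. Of the catalytic F1 head, ATP5F1B (beta subunit) stood at 1250 ± 111 CPM after ATP6 silencing and 1293 ± 119 after ATP8 silencing (SD, n = 4), a log2 difference of -0.05 (SE 0.0421). ATP5F1A (alpha subunit) differed by -0.02 (SE 0.0395). ATP5F1C (gamma subunit of the central stalk) had the smallest p of the list, at 293, 292, 272 and 270 CPM after ATP6 silencing and 303, 362, 266 and 293 CPM after ATP8 silencing. These groups overlapped, with ATP8 replicate 2 the highest, and the difference was -0.12 (SE 0.0600, adjusted p = 0.993). The peripheral stalk subunits ATP5PB, ATP5PD, ATP5PF and ATP5PO lay between -0.10 and 0.00. Of the genes for subunit c, which builds the rotor ring, ATP5MC1 differed by 0.09, ATP5MC2 by 0.00 and ATP5MC3 by -0.04. The membrane subunits that sit beside ATP6 and ATP8 in the complex ran from -0.17 for ATP5MD, the widest difference of the list, to 0.00 for ATP5MF, and ATP5IF1, the inhibitor of ATP hydrolysis, differed by 0.03. Of 7 assembly factors and modifiers, ATPAF1 and ATPAF2, which help to form the F1 head, differed by -0.01 and 0.00, TMEM70, an assembly factor of the c ring, by -0.02, and FAM173B, a methyltransferase of subunit c, by 0.09.

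Of the 18 subunits, 15 were lower after ATP6 silencing, with a median of -0.04. Without ATP8 replicate 2 8 of the 18 were lower and the median was 0.01. The median was -0.07 in batch 1 alone and -0.05 in batch 2 alone. Nuclear subunits of complexes I to IV leaned the same way. Of 37 complex I subunits 26 were lower (median -0.03), and of 25 subunits of complexes II to IV 21 were (median -0.05). None was called. Summed over these 80 subunits, the level was 10353, 11338, 9569 and 10165 CPM in ATP6 replicates 1 to 4 and 10512, 12021, 10023 and 10382 CPM in ATP8 replicates 1 to 4. Replicate 2 was the highest of both groups, for 54 of the 80 genes after ATP6 silencing and for 58 after ATP8 silencing. Over all 8 libraries 77.5% of the 80 were lower after ATP6 silencing, against 49.4% of all genes tested. Without ATP8 replicate 2 it was 52.5%, and without ATP6 replicate 2 it was 88.8%. In batch 1 alone 65% were lower, and in batch 2 alone, which holds neither replicate 2, 76.2%. With the gene length trend removed it was 77.5%. The members with the smallest p, NDUFB6 (complex I, -0.23) and UQCRB (complex III, -0.21), both had their highest value in ATP8 replicate 2, at 79.5 and 121 CPM.

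**Figure D3:**
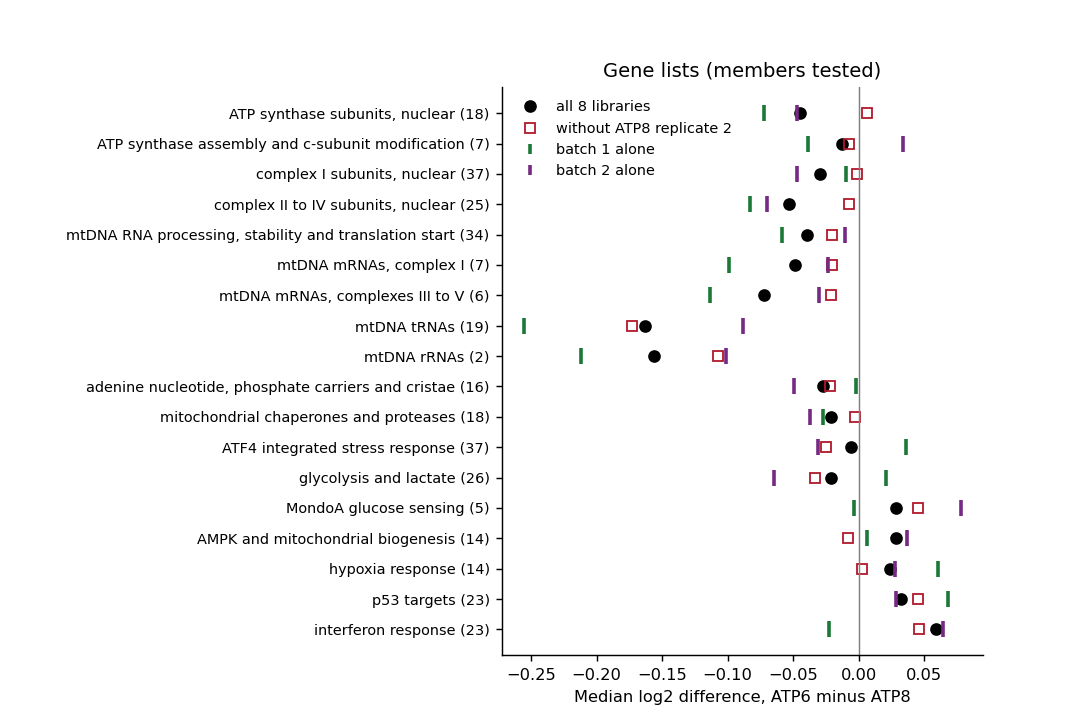
Median log2 difference of ATP6 minus ATP8 silencing for 18 gene lists, with the number of members tested in brackets (black points, all 8 libraries; red open squares, without ATP8 replicate 2; green and purple bars, batch 1 and batch 2 alone). The median of the nuclear ATP synthase subunits is -0.04 with all libraries, 0.01 without ATP8 replicate 2, -0.07 in batch 1 alone and -0.05 in batch 2 alone. The fit without ATP6 replicate 2 is not drawn. Over the nuclear subunits of complexes I to V it raised the share of lower genes from 77.5% to 88.8%. The lists of mtDNA genes stay below 0 in all 4 fits shown.

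Of 35 factors that process, stabilise and translate mitochondrial RNA, 34 were matched and tested (FASTKD4 is another name of TBRG4, also listed), and none was called. All 34 intervals lay inside 0.5, with 25 of the 34 lower and a median of -0.04. LRPPRC, which with SLIRP protects mitochondrial mRNAs, differed by 0.00 (SE 0.0462) and SLIRP by -0.21 (SE 0.113), the largest of the list. SLIRP was at 112 CPM in ATP8 replicate 2 and at 67.7 to 73.6 in the other ATP8 libraries. FASTKD5, needed for the mRNA ends that no tRNA marks, such as that between MT-ATP6 and MT-CO3, differed by 0.06 (SE 0.0546). ELAC2, which cuts the tRNA 3' ends, differed by -0.01, MTPAP, the poly(A) polymerase, by 0.01, and POLRMT, the RNA polymerase, by 0.01. The carriers that exchange the substrates of ATP synthesis had small differences: SLC25A3 (phosphate) by 0.01, and SLC25A5 and SLC25A6 (ADP and ATP) by -0.03 and 0.01.

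The lists of cellular responses gave no call either. Over all 25 lists 398 genes were tested, and 18 of them (4.52%) had an unadjusted p under 0.05, next to 4.3% of all genes. The 37 genes of the ATF4 integrated stress response, which mitochondrial defects often switch on, had a median of -0.01, with 16 higher and 21 lower. FGF21, a hormone made under mitochondrial stress, had the smallest p of this list at 0.130, 0.0876, 0.115 and 0.142 CPM after ATP6 silencing and 0.750, 0.564, 0.226 and 0.0943 CPM after ATP8 silencing. These groups overlapped at very low levels, and the difference was -1.64 (SE 0.549, adjusted p = 0.993). Glycolysis and lactate genes had a median of -0.02 (9 higher, 17 lower of 26), with PGK1 at -0.08. Targets of p53 had a median of 0.03 (16 higher, 7 lower of 23) and BTG2, an antiproliferative one, was at 0.10. Genes of AMPK signalling and mitochondrial biogenesis had a median of 0.03. In that list TFB1M, which methylates the 12S rRNA, stood at 11.3, 11.5, 12.6 and 11.2 CPM after ATP6 silencing and 13.2, 13.3, 13.4 and 15.04 CPM after ATP8 silencing, without overlap, with a difference of -0.23 (SE 0.0896, adjusted p = 0.993). Hypoxia genes had a median of 0.02, interferon response genes of 0.06, cholesterol synthesis genes of -0.01, ERK immediate early genes of 0.02 and mitochondrial chaperones and proteases of -0.02.

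The member with the smallest p of each of these lists did not pass the test either (adjusted p = 0.993 for each, edgeR). The interferon-induced gene IFI44 differed by 0.85 (SE 0.324), at 0.786 ± 0.29 CPM after ATP6 silencing and 0.456 ± 0.273 after ATP8 silencing (SD, n = 4), with overlap. VEGFA, the angiogenic growth factor of the hypoxia list, was at 41.5, 41.4, 44.9 and 47.7 CPM after ATP6 silencing and 35.4, 36.2, 41.1 and 46.7 CPM after ATP8 silencing, a difference of 0.14 (SE 0.0616). Within each batch its highest value was in an ATP6 library. MINOS1, a subunit of the complex that shapes cristae, differed by -0.31 (SE 0.138) at a mean near 6 CPM, with its highest value of 8.38 CPM in ATP8 replicate 2. GRPEL1, a co-chaperone of protein import, differed by -0.13, MLXIPL, the carbohydrate response factor related to MondoA, by 0.19, the sterol desaturase gene SC5D by -0.10 and the AP-1 subunit gene JUNB by 0.16. Of the lists of mtDNA genes and their copies, MT-ND6 (complex I) differed by -0.12 and the nuclear copy MTND2P28 by -0.09. Of the markers of other cell types, COL3A1, PECAM1 and ALB, all below 1 CPM, differed by 0.53, 0.19 and -0.13.

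Set against the control, the treatments gave different numbers of calls. After ATP6 silencing 2 genes were called (0.00987% of 20272), and after ATP8 silencing 13 (0.0641%), 9 higher and 4 lower. The contrasts share the 4 control libraries, and the count for ATP8 was 36 with the replicate number as a block, 4 without ATP8 replicate 2 or without control replicate 1, and 5 to 7 without ATP8 replicate 1 or 4 or control replicate 2 or 4. That for ATP6 was 1 without ATP6 replicate 2, control replicate 1 or control replicate 3, and also without a batch term, and the call lost in each of these was that of TXNIP. The direct comparison called 0 of the 20272 genes, and so none of either set. MT-RNR1 rose after both, by 0.52 (SE 0.0625) after ATP6 silencing and by 0.75 (SE 0.0627) after ATP8 silencing on the log2 scale (adjusted p = 8.71e-07 and 3.1e-12). TXNIP, which restrains glucose uptake and is induced by the glucose sensor MondoA, fell after both. It stood at 26.3, 21.0, 35.4 and 33.3 CPM in ATP6 replicates 1 to 4, at 23.1, 25.3, 30.9 and 33.9 CPM in ATP8 replicates 1 to 4 and at 35.1, 33.1, 46.2 and 41.9 CPM in the control. In each batch all treated libraries were below both control libraries. The log2 fold changes were -0.44 (SE 0.0772, adjusted p = 0.0064) and -0.47 (SE 0.0773, adjusted p = 0.00113), and the direct difference was 0.03 (SE 0.0783, 95% interval -0.13 to 0.19).

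For the 11 genes called after ATP8 silencing but not after ATP6 silencing, a choice that favours larger values after ATP8 silencing, the 2 differences are given side by side. ARRDC4, a relative of TXNIP and also a MondoA target, differed from the control by -0.41 (adjusted p = 0.000471) after ATP8 silencing and by -0.29 (adjusted p = 0.111) after ATP6 silencing, with a direct difference of 0.11 (95% interval -0.01 to 0.24). The tetraspanin CD63 differed from the control by 0.34 and 0.29 in the same order, with a direct difference of -0.05. MT-RNR2 differed by 0.31 and 0.23, the mitochondrial ribosomal protein gene MRPL24 by 0.30 and 0.22, and YARS, the cytosolic tyrosyl-tRNA synthetase and an ATF4 target, by 0.22 and 0.15. PPP1R3E, a regulatory subunit of protein phosphatase 1 in glycogen metabolism, differed by -0.39 and -0.22. It had the smallest p of the 11 in the direct comparison, where the 2 groups did not overlap (0.17, SE 0.0766, adjusted p = 0.993). The remaining 5, TMSB4X, ZNF75A, LINC02001, OCIAD2 and EMC4, differed directly by -0.13, 0.16, -0.10, -0.11 and -0.05.

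**Figure D4:**
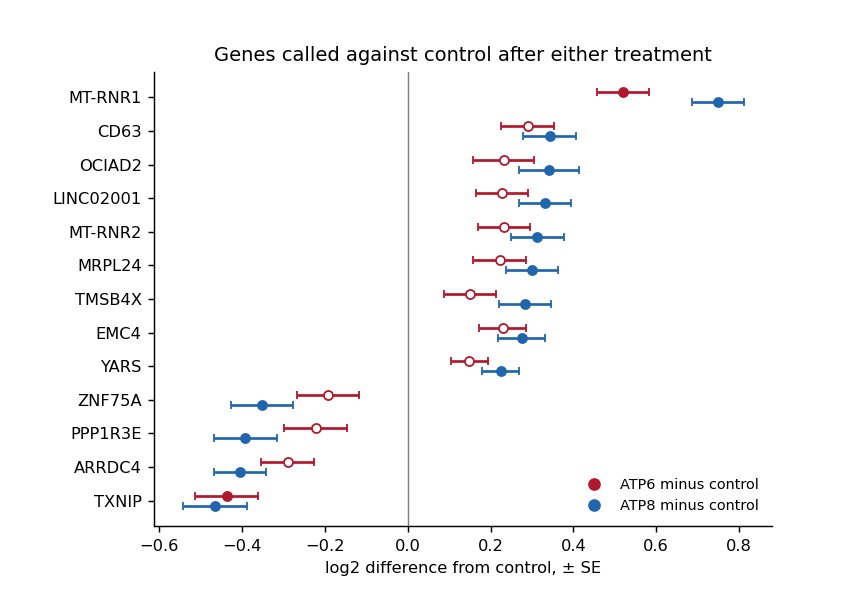
Log2 difference from control, ± SE, of the 13 genes called against control after either treatment (red, ATP6 silencing; blue, ATP8 silencing; filled, adjusted p under 0.05). All 13 genes were called after ATP8 silencing and 2 of them, MT-RNR1 and TXNIP, also after ATP6 silencing, and both contrasts use the same 4 control libraries.

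Among protein-coding genes of at least 1 CPM, the 20 with the smallest p were taken. None passed the correction (adjusted p = 0.993 for each, edgeR). They are not the smallest p of all genes tested, which was 4.04e-05 (adjusted p = 0.738, edgeR) and lay outside this choice. After ATP6 silencing 12 were higher and 8 lower, and in 7 of the 20 the groups did not overlap, against the 1.3% above, a count that the choice by p fixes in part. For 3 of the 20 the difference was over 1 on the log2 scale. U2AF1, a splicing factor subunit that binds 3' splice sites (chromosome 21, 43092956 to 43107587), stood at 13.3, 16.0, 18.4 and 22.5 CPM after ATP6 silencing and at 6.08, 5.84, 8.51 and 7.17 CPM after ATP8 silencing, a log2 difference of 1.34 (SE 0.342). SMIM11A, a small membrane protein gene on the same chromosome, was at 1.61 to 2.93 CPM in all ATP6 libraries, at 19.9, 17.8 and 18.2 CPM in ATP8 replicates 1, 3 and 4, and at 1.53 CPM in ATP8 replicate 2. In the control it was at 12.6 CPM in replicate 2 and at 1.34 to 1.66 in the others. AC004556.1, on the scaffold KI270721.1 and described in the file as similar to MRPL23, stood at 15.7, 12.4, 3.14 and 11.8 CPM after ATP6 silencing, at 2.85 to 3.54 CPM after ATP8 silencing and at 8.07 CPM in control replicate 2. These 3 genes were the only ones called, all at an adjusted p under 0.05, when the model held the 8 libraries alone.

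The build holds near-identical copies of U2AF1 and SMIM11A, so their values are less certain, and the cause of their differences was not tested. Of the 50-base windows of U2AF1 transcripts, 94.3% also occur in transcripts of U2AF1L5, and for SMIM11A and SMIM11B it is 93.2%. With the counts of U2AF1 and U2AF1L5 summed, a choice made after the data were seen, the level was 35.6, 36.9, 39.5 and 67.4 CPM in the ATP6 libraries and 35.6, 34.5, 34.05 and 34.01 CPM in the ATP8 libraries. Only ATP6 replicate 4 then stood apart, and the log2 difference fell from 1.34 to 0.35 (SE 0.237, adjusted p = 0.993). The sum for SMIM11A and SMIM11B still differed by -2.52 (SE 0.807, adjusted p = 0.993, edgeR). Of the counts on this pair, 0% to 7.69% per library fell on the copy. How the reads that fit both copies were counted is not given in the sources used here.

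The other 17 of these genes differed by 0.16 to 0.79 in either direction. MATN2, an extracellular matrix adaptor protein, was at 6.78, 6.39, 6.12 and 6.89 CPM after ATP6 silencing and 4.74, 4.31, 5.16 and 5.04 CPM after ATP8 silencing, without overlap (0.44, SE 0.119). SEMA4F, an axon guidance ligand, differed by 0.24, PDGFRL by 0.34, C1orf216 by 0.24 and NFKBIE, an inhibitor of NF-kappa-B, by 0.33, all without overlap. PFDN4, a subunit of the prefoldin chaperone, was at 22.1, 20.8, 24.4 and 21.2 CPM after ATP6 silencing and 28.2, 40.2, 25.8 and 26.5 CPM after ATP8 silencing, without overlap but with ATP8 replicate 2 far above the rest (-0.44, SE 0.124). TMEM126B, an assembly factor of complex I, differed by -0.24. Of abundant protein-coding genes, with a mean of at least 100 CPM, MT-ATP8 had the largest difference, followed by RPS29 (-0.22), TBCA (-0.21), COX7B (-0.20) and RPL24 (-0.20). COX7B, a subunit of cytochrome c oxidase, was at 174 CPM in ATP8 replicate 2 and at 89.5 to 116 in the other ATP8 libraries, and differed by -0.38 in batch 1 and -0.02 in batch 2.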

How the data were processed

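The authors deposited raw counts per gene of poly(A)-enriched RNA, without normalization; the same table holds gene lengths (a number of bases, deposited by the authors, type other). The submitters' processing notes name GRCh38.p12, R 4.3.0, DESeq2 1.40.2 and limma 3.56.2; aligner, counting program and strand are not given in the sources used here. Identifiers follow GENCODE. The paper describes paired-end and the sample records single-end reads. Counts were tested here with edgeR 4.0.16 in R 4.3.3 (quasi-likelihood, TMM, filterByExpr minimum count 10, condition and batch, all 46 libraries, Benjamini-Hochberg adjustment over 20272 genes, threshold 0.05). CPM (on TMM-scaled library totals) and log2 fold changes were computed from the counts. DESeq2 1.42.0 and limma 3.58.1 (voom) served as alternatives. The script was tested on simulated data.

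Genes named were mtDNA mRNAs and rRNAs, the 20 protein-coding genes with the smallest p at a mean of at least 1 CPM, genes called against control, the smallest p of each list and the 5 largest differences at a mean of at least 100 CPM; others named beside them were chosen after their values were seen. Members and lists were chosen with earlier results of these data known. Replicates differed beyond sampling noise (chi-square per degree of freedom 5.37 to 20.2 over 12 pairs). Same-numbered libraries of the groups deviated together (correlations 0.329, 0.391, 0.259 and 0.45). With the means of each batch, which the study's methods tie to the numbers, removed, the correlation was 0.0036 in batch 1 and -0.021 in batch 2. Deviations from the batch mean still followed gene length. In ATP6 and ATP8 libraries the Spearman correlation was 0.34 and 0.24 in replicate 1 and -0.25 and -0.12 in replicate 2. It had opposite signs in batch 2, at 0.29 and -0.22 in replicate 3 and -0.13 and 0.06 in replicate 4. Intervals and tests cover the spread between libraries.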

Additional observations from a re-analysis of the deposited data

Results flagged for a closer look

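In 10 of 152 groups of 4 libraries examined (6.58%), 1 library lay farther from the other 3 than Dixon's limit for 4 values allows. About 1 in 20 groups of 4 independent values from 1 normal distribution pass that limit. The groups here spanned 2 batches, shared libraries and held genes partly chosen by p. The 6.58% can therefore not be compared with that rate. After ATP8 silencing, replicate 2 was the highest for PFDN4 (40.2 CPM against 25.8 to 28.2 in the others), SLIRP (112 against 67.7 to 73.6) and NDUFB6 (79.5 against 60.3 to 61.4), and the lowest for SMIM11A (1.53 against 17.8 to 19.9). Replicate 4 of ATP8 silencing was the highest for TFB1M (15.04 CPM against 13.2 to 13.4) and for the share of counts on mtDNA genes (4.86% against 4.45% to 4.52%). After ATP6 silencing, replicate 2 was the highest for YARS (178 CPM against 161 to 163), CD63 (273 against 209 to 219) and GRPEL1, a co-chaperone of mitochondrial protein import (62.5 against 50.3 to 51.9). Replicate 3 of ATP6 silencing was the lowest for TCF7, a transcription factor of Wnt signalling (27.9 CPM against 31.9 to 32.7).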

How the results depend on the processing

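The count of 0 genes between ATP6 and ATP8 silencing became 3 with only these 2 groups in the fit and 21 without a filter on low counts (5 higher, 16 lower), and was 0 (range 0 to 0) without each library in turn. Without a filter the difference in MT-ATP8 mRNA, ATP6 minus ATP8, passed the test (-0.32, adjusted p = 8.02e-05, edgeR). With the filter the same difference had an adjusted p of 0.993 (edgeR), and the libraries of the 2 groups overlapped. The unfiltered fit held 47354 genes and called more genes in each contrast. How the added low genes alter its estimate of the spread was not tested, so this call is uncertain. For ATP6 against control the count of 2 became 14 with 2 groups in the fit, 22 with DESeq2 and batch, 90 without a filter, 0 in batch 2 alone, and 1 without a batch term, with DESeq2 without batch and against a minimum log2 fold change of 0.2. For ATP8 against control the count of 13 became 53, 74 and 250 under the first 3 of these settings, 1 without a batch term and against the minimum fold change, 4 in batch 1 alone and 4 with DESeq2 without batch. Without each library in turn it ran from 1 to 3 for ATP6 and from 4 to 16 for ATP8. With the replicate number as a block it was 36 for ATP8, and this block changed no other call (0 genes between ATP6 and ATP8, 955 at an unadjusted p under 0.05, edgeR). The cause was not tested for any of these. For 69 other named genes, 1549 of 1584 values kept sign and side of the threshold, 26 had the other sign without a call and 9 were called. Of all intervals 63.1%, and of those at 10 CPM or more 99.7%, lay inside 0.5 on the log2 scale.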
